A study of Homo sapiens with 6 samples.

Results

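The genes examined were those that encode the subunits of RNA polymerase I, RNA polymerase II and RNA polymerase III (Pol I, Pol II and Pol III). They were taken by name, as entries called POLR1, POLR2 or POLR3 followed by a letter, leaving out numbered pseudogenes and names with a hyphen. This gave 36 of the 61541 gene entries. Of these, 6 belonged to Pol I, 2 were shared by Pol I and Pol III, 5 were shared by all of the enzymes, 11 belonged to Pol II and 10 to Pol III. The remaining 2 entries carried the name POLR2J4, which does not encode a subunit. The 11 Pol II entries were 7 core subunits, the associated factor POLR2M and 3 entries for paralogs of POLR2J.

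Bulk RNA-seq was performed on H9, an established human cell line of cutaneous T-cell lymphoma (CTCL). In 3 libraries the cells had received DMSO, the vehicle, and in 3 they had received AZD4573 for 4 h. AZD4573 selectively inhibits CDK9, the kinase that phosphorylates the C-terminal tail of Pol II and allows it to leave the promoter region and elongate. The labels class all cells as wild type, give no concentration and state no time for DMSO. The study is thus a view of 1 cell line at 1 time, and the labels do not say whether replicates came from separate cultures, so that p-values measure only the spread between libraries, which may be technical.

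Total counts per library ranged from 70367303 to 76571157 with DMSO and from 52101868 to 63795185 with AZD4573. Levels are given as CPM, a gene's counts scaled to one common library size after edgeR's TMM correction. The T-cell identity of the line was checked first. CD3D, CD3E, CD3G and LCK stood at 143, 154, 135 and 190 CPM with DMSO, whereas CD2 (0.105 CPM) was nearly absent and CD4 (3.83 CPM) was low. The summed level of the 8 T-cell markers lay between 675 and 708 CPM with DMSO and between 919 and 939 CPM with AZD4573. The sum hides different directions, since mean CD28 went from 5.85 to 4.35 CPM and mean TRAC from 56.4 to 116 CPM. Single markers of other lineages were present as well, namely EPCAM (155 CPM) and CD79A (57.8 CPM), whereas HBB was listed at 0 in all libraries.

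As background, Pol I transcribes the precursor of the large ribosomal RNAs in the nucleolus, Pol II transcribes messenger RNAs, and Pol III transcribes transfer RNAs and other short RNAs. The enzymes are built on one plan, in which a pair of large subunits forms the active centre on a small assembly platform, a stalk contacts the emerging RNA, and a zinc ribbon subunit takes part in cleavage of stalled transcripts. Pol I and Pol III carry further subunits that resemble initiation factors of Pol II. The messenger RNAs of all of these subunits are themselves made by Pol II, and proliferating lymphoma cells depend on the ribosomal and transfer RNAs that the other enzymes supply.

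Most subunit transcripts were lower upon AZD4573 treatment. All 36 entries passed edgeR's filter on low counts, and by edgeR's quasi-likelihood test 26 were lower and 9 were higher at an adjusted p under 0.05, with POLR2I as the entry that did not pass. This corresponds to 72.2% lower and 25% higher, against 37.4% lower and 37.3% higher among all 17678 genes tested. When a fold change of at least 1.5 was also required, 17 of the 36 entries were lower (47.2%) and 4 were higher. The shares among all genes were 23.7% and 22.7%. Of the POLR2J4 entries, which encode no subunit, 1 is in the lower and 1 in the higher count. POLR2C, POLR2L, POLR3E and POLR3GL passed this fold narrowly, and each came under it when some single library was left out. Each AZD4573 library lay below each DMSO library for 26 entries and above for 9, a separation seen for 38.7% and 39.0% of all genes, respectively. The median log2 fold change was -0.53 over the 36 entries and 0.03 over all genes tested, and 10 entries fell by at least 1 on the log2 scale.

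These figures rest on TMM scaling, which centres the trimmed mean of the gene-wise changes between libraries. Messenger RNAs of mitochondrial DNA, which are not made by Pol II, took 3.04% to 3.22% of the counts with DMSO and 4.67% to 4.98% with AZD4573. With libraries scaled to these 13 mRNAs, the median log2 fold change moved to -1.27 for the 36 entries and to -0.71 for all genes. Only 1 entry was then higher at an adjusted p under 0.05 in edgeR. It was the POLR2J4 entry ENSG00000214783, which does not encode a subunit. This scale takes the mitochondrial mRNAs as unchanged by AZD4573, which was not tested. In bulk samples, fewer cells and less RNA per cell cannot be told apart. All log2 fold changes below are on the TMM scale unless the mitochondrial scale is named.

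**Figure D1:**
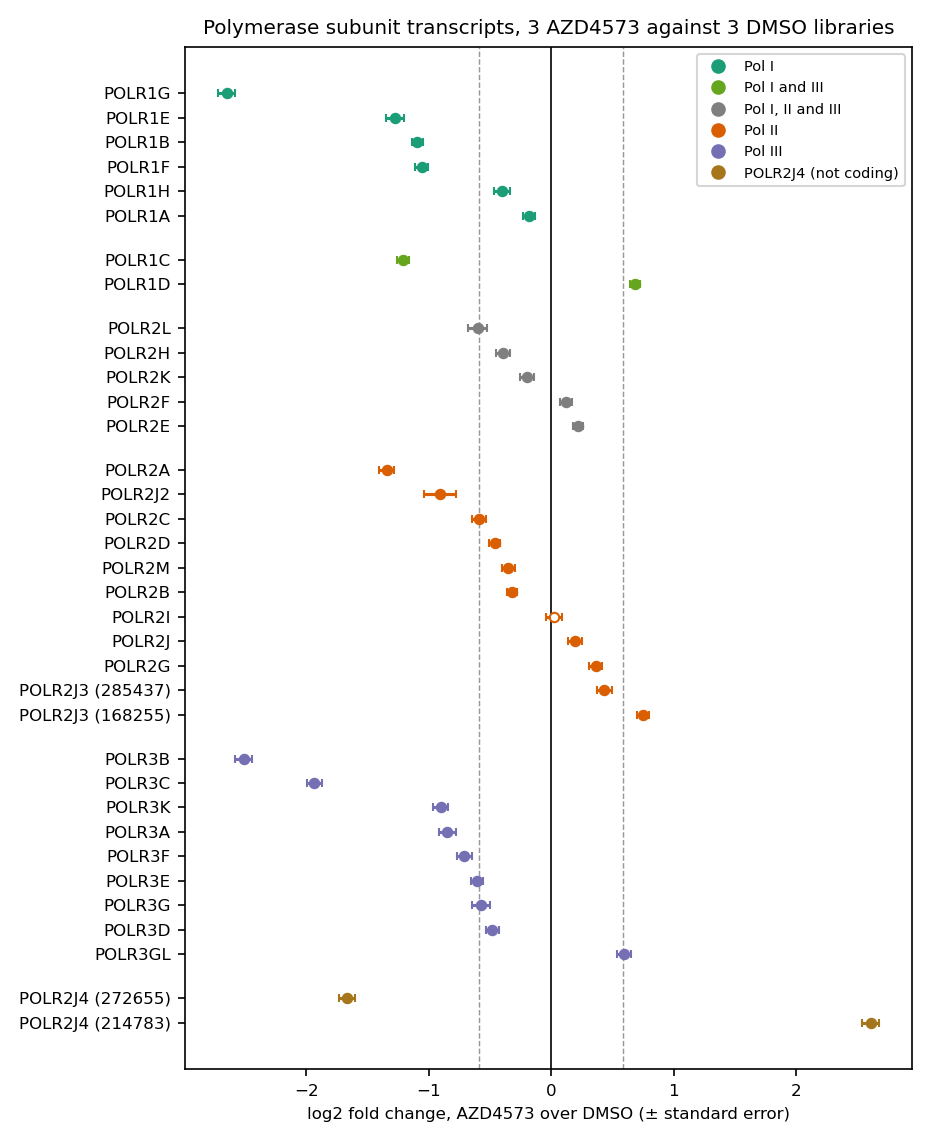
Log2 fold change (AZD4573 over DMSO, edgeR, TMM scale) of each entry described here, grouped by enzyme, with standard errors as bars, n = 3 libraries per group, dashed lines at a fold change of 1.5 and an open circle for the entry that did not pass the test. Pol I lies wholly left of 0, Pol III does so except for POLR3GL, and of the entries right of 0 only ENSG00000168255 (POLR2J3) and ENSG00000214783 (POLR2J4) stayed above 0 when libraries were scaled to mitochondrial mRNAs.

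The enzymes differed in how many of their own subunits were lower. Among all genes tested, 37.4% were lower and 37.3% were higher. For Pol I, 6 of 6 entries were lower, with a median log2 fold change of -1.08, and the summed level of the class went from 411 ± 4.2 to 222 ± 9.95 CPM (mean ± SD, n = 3). For Pol III, 9 of 10 were lower with a median of -0.78, and the sum went from 493 ± 12.6 to 290 ± 8.45 CPM. The 7 core subunits of Pol II comprised 4 that were lower, 2 that were higher and 1 that did not pass the test, with a median of -0.32 and a sum that went from 791 ± 18.3 to 547 ± 3.12 CPM. Within this sum POLR2A alone went from 321 to 127 CPM. The 5 subunits common to all enzymes comprised 3 that were lower and 2 that were higher. Their median was -0.19 and their sum was 406 ± 14.3 CPM with DMSO and 422 ± 5.22 CPM with AZD4573. Within this sum POLR2E alone went from 237 to 277 CPM. Subunits are not replicates, so no test was made between classes. On the mitochondrial scale the medians were -1.81 for Pol I, -1.52 for Pol III, -1.06 for Pol II core subunits and -0.93 for the common subunits.

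Promoter sequences are shown for the members with the largest fall in each enzyme and the largest rise, among genes whose last 100 bases or more before the start hold no annotated exon. They are from RefSeq on GRCh38.p14, on the plus strand, 5′ to 3′, and end at the last base before the transcription start. Capitals mark matches to the motifs described after them.
POLR1G (chr19:45406494-45406643): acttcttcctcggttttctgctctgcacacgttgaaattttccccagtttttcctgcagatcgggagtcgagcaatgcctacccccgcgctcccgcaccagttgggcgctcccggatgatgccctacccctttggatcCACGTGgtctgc
POLR2A (chr17:7484264-7484365): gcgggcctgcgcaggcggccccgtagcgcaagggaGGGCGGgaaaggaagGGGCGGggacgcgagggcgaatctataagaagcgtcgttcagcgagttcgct
POLR3B (chr12:106357598-106357747): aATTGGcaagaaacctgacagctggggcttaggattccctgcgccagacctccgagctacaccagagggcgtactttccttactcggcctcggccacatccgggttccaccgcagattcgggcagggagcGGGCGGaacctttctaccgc
POLR3GL (chr1:145964576-145964689): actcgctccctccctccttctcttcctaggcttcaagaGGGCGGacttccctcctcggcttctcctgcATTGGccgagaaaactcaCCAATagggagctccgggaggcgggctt

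The POLR1G stretch holds the E-box CACGTG, the core of sites for MYC and MAX, with its first base 12 bases before the start. POLR2A holds the GC box GGGCGG 67 and 52 bases before the start. In POLR3B a GC box begins 20 bases before the start and CCAAT lies on the other strand at 149 bases. POLR3GL, the member that was higher, holds a GC box at 76 bases and CCAAT on each strand, at 46 and 28 bases.

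Windows from 250 bases before to 50 bases after the start were at hand for 24 of the members and were searched on both strands for these motifs, for the ETS core CCGGAAG, for the TATA box TATAAA and for AGATAA, a site of the GATA kind. The motifs do not overlap each other within the stretches shown. CACGTG was found in 4 of 24 windows (16.7%, in POLR1G, POLR3A, POLR3C and POLR3E) against 7.26% of 35093 windows of all genes. The GC box was found in 66.7% against 44.9%, the ETS core in 37.5% against 10.3%, CCAAT in 16.7% against 34.6%, the TATA box in 4.17% against 11.5% and the GATA-like site in 4.17% against 10.3%. Median GC content was 60.7% in the members' windows and 58.7% in all. For each member a single window was taken, the one nearest the canonical start. The windows of all genes were limited neither to a single start per gene nor to genes expressed in H9. The shares thus come from unlike sets. A match describes letters only, and none was tested as a site.

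Pol I was examined subunit by subunit, beginning with the pair of subunits that resembles TFIIF, a Pol II initiation factor. POLR1G, one of this pair, stood at 79.8, 78.2 and 77.9 CPM in the DMSO libraries and at 14.1, 11.7 and 11.8 CPM in the AZD4573 libraries. This was 6.27-fold lower, with a log2 fold change of -2.65 (SE 0.0688, edgeR adjusted p = 9.9e-12), and only 1.11% of the genes tested had a lower value. Its partner POLR1E stood at 49.7, 45.8 and 42.4 CPM with DMSO and at 20.2, 17.8 and 19.0 CPM with AZD4573, a log2 fold change of -1.27. Neither gene overlapped between groups, a separation below DMSO that was seen for 38.7% of all genes tested.

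POLR1G lies on chromosome 19 (45406644 to 45410737, plus strand, GRCh38), where 1593 of its exon bases overlap exons of ERCC1 on the opposite strand. The methods give default counting parameters, which ignore strand, but the labels and methods name different library kits, so that the use of strand is not certain. In all, 46.7% of the 100-base stretches of POLR1G transcripts also occur in ERCC1. ERCC1, a DNA repair endonuclease subunit, stood at 107 ± 1.3 CPM with DMSO and 121 ± 1.79 CPM with AZD4573. The value of POLR1G is therefore uncertain to the extent that reads of the overlap were divided between the genes, which was not tested.

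The large subunits of Pol I were both lower, with values of different size. POLR1B, the second largest, stood at 100, 96.3 and 95.8 CPM with DMSO and at 46.3, 46.1 and 44.8 CPM with AZD4573, a log2 fold change of -1.09 (SE 0.0456, edgeR adjusted p = 2.1e-10). POLR1A, the largest and the one that carries most of the catalytic site, stood at 116, 123.5 and 125 CPM with DMSO and at 113, 108 and 100 CPM with AZD4573. The groups of POLR1A were thus close, with the highest AZD4573 library just under the lowest DMSO library, and its log2 fold change was -0.18 (SE 0.0515, edgeR adjusted p = 0.00599). Without any 1 library, POLR1A ranged from -0.23 to -0.14.

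The stalk subunit POLR1F went from 49.7 ± 1.64 to 23.9 ± 0.590 CPM, at a log2 fold change of -1.06. The zinc ribbon subunit POLR1H went from 17.7 ± 0.544 to 13.4 ± 0.648 CPM, a log2 fold change of -0.40. POLR1H shares 19.3% of its 100-base stretches with its antisense gene POLR1HASP, which rose from 5.12 ± 0.355 to 7.76 ± 0.352 CPM but lay at a log2 fold change of -0.14 on the mitochondrial scale, and without strand reads of the pair cannot be told apart. Pol I subunits thus fell by between 0.18 and 2.65 on the log2 scale, and the fall was at least 1.5-fold in 4 of 6. Among all genes tested, 23.7% were called lower at this fold.

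POLR1C and POLR1D form the assembly platform of both Pol I and Pol III, and they moved in opposite directions on the TMM scale. POLR1C stood at 82.1, 84.8 and 82.3 CPM with DMSO and at 37.4, 35.6 and 34.9 CPM with AZD4573, a log2 fold change of -1.21 (SE 0.0485, edgeR adjusted p = 1.6e-10). POLR1D stood at 100, 94.9 and 93.3 CPM with DMSO and at 155, 157 and 153 CPM with AZD4573, a log2 fold change of 0.69 (SE 0.0430, edgeR adjusted p = 7.0e-09). The rise of POLR1D was absent on the mitochondrial scale, where its log2 fold change was -0.05 (edgeR adjusted p = 0.463), while POLR1C lay at -1.94. The 2 genes sum to 179 ± 3.39 CPM with DMSO and 191 ± 2.63 CPM with AZD4573, so that the class sum hides the divergence.

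**Figure D2:**
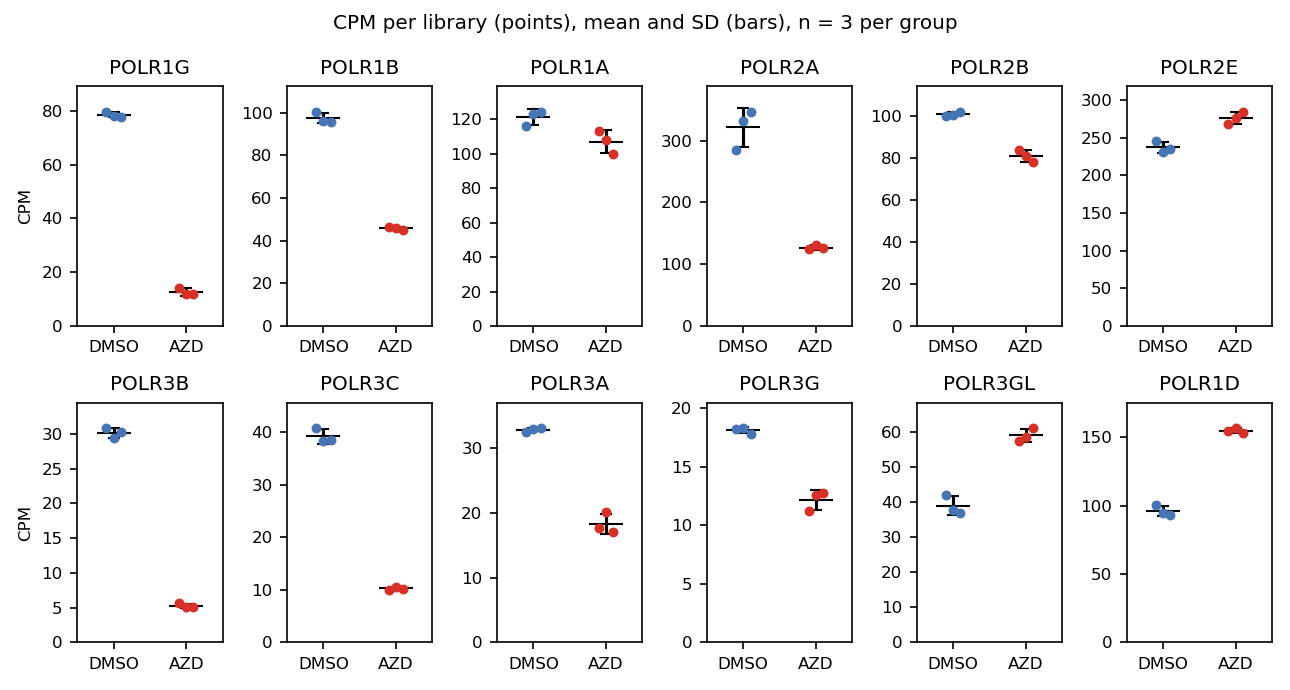
CPM of 12 subunit genes in each library (points), with the mean and SD of each group as bars, n = 3 per group, each axis from 0. POLR1G, POLR3B and POLR3C fell furthest, POLR1A and POLR2B fell little, and POLR2E, POLR3GL and POLR1D were higher with AZD4573 on this scale but had log2 fold changes below 0 when libraries were scaled to mitochondrial mRNAs.

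Among the subunits common to all enzymes, which sit around the core of each, changes were small. POLR2L fell from 27.8 ± 1.95 to 18.4 ± 1.72 CPM, the only one of the 5 to pass a fold change of 1.5, with a log2 fold change of -0.60. At 1.51-fold it passed narrowly, and it came to between -0.55 and -0.68 without single libraries, under 1.5-fold without DMSO replicate 3, AZD4573 replicate 2 or AZD4573 replicate 3. POLR2H (-0.39) and POLR2K (-0.19) were also lower by edgeR, with adjusted p = 4.4e-05 and adjusted p = 0.00684. POLR2L and POLR2K are the small zinc-binding subunits of this set.

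POLR2E is the most abundant of the common subunits per length, at 83.2 ± 2.57 CPM per kb of its canonical transcript with DMSO. It stood at 246, 232 and 235 CPM with DMSO and at 269, 277 and 285 CPM with AZD4573, a log2 fold change of 0.22 (SE 0.0415, edgeR adjusted p = 0.00028) that became -0.52 on the mitochondrial scale. POLR2F, a subunit that helps to hold the core together, was at 44.4 ± 1.81 and 48.3 ± 1.27 CPM. Its log2 fold change of 0.12 was at the edge of the threshold (edgeR adjusted p = 0.0469), and it became -0.62 on the mitochondrial scale. The call was lost in 5 of the 6 fits that left out a library (edgeR adjusted p from 0.0735 to 0.239), with library size as the only scaling (0.773) and without a filter on low counts (0.337).

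Of the Pol II core, the largest subunit fell furthest. POLR2A carries the C-terminal tail of heptad repeats on which CDK9 acts. It stood at 285, 332 and 347 CPM with DMSO and at 124, 130 and 126 CPM with AZD4573. The groups were far apart, at 2.53-fold lower or a log2 fold change of -1.34 (SE 0.0625, edgeR adjusted p = 5.0e-10). Leaving out each library in turn gave values between -1.43 and -1.30. The stretch before its start with 2 GC boxes is shown above.

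POLR2B, the second largest subunit of Pol II, had a smaller value. It stood at 99.9, 100 and 102 CPM with DMSO and at 83.8, 80.6 and 77.8 CPM with AZD4573, a log2 fold change of -0.32 (SE 0.0445, edgeR adjusted p = 2.0e-05). The platform pair of Pol II consists of POLR2C and POLR2J. POLR2C fell from 47.7 ± 3.04 to 31.7 ± 0.433 CPM, a log2 fold change of -0.59. POLR2J was at 85.2 ± 5.63 CPM with DMSO and 97.6 ± 5.09 CPM with AZD4573, a log2 fold change of 0.20 that became -0.54 on the mitochondrial scale. The call of POLR2J was lost without DMSO replicate 2 (edgeR adjusted p = 0.06) and with library size only (0.162). Of its 100-base stretches, 25.3% occur in other genes, among them its paralogs, and their part in its value was not tested. As in the Pol I and Pol III platform, the larger partner was lower and the smaller partner was not lower on the TMM scale.

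The stalk of Pol II, which binds the emerging RNA, is made of POLR2D and POLR2G. POLR2D fell from 147 ± 4.66 to 107 ± 4.13 CPM, a log2 fold change of -0.46. POLR2G was at 45.7 ± 2.28 CPM with DMSO and 58.9 ± 2.23 CPM with AZD4573, a log2 fold change of 0.36 that became -0.38 on the mitochondrial scale. The partners thus diverged by edgeR on the TMM scale, with adjusted p = 6.4e-07 for POLR2D and adjusted p = 3.2e-05 for POLR2G.

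POLR2I, the zinc ribbon subunit of Pol II, stood at 46.1, 41.0 and 43.8 CPM with DMSO and at 47.8, 40.7 and 44.8 CPM with AZD4573. The groups overlapped, and the log2 fold change was 0.03 (SE 0.0655, edgeR adjusted p = 0.732), with values between -0.03 and 0.08 when each library was left out. It was -0.71 on the mitochondrial scale. POLR2I shares 48.7% of its 100-base stretches with other genes, mainly with the entry ENSG00000279504, which itself was at 0.574 CPM with DMSO. POLR2M, which binds Pol II and makes its activity depend on Mediator, is not a core subunit, and it fell from 50.0 ± 2.98 to 39.3 ± 0.576 CPM. Its log2 fold change was -0.35.

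In Pol III both large subunits fell. POLR3B, the second largest, stood at 30.8, 29.4 and 30.2 CPM with DMSO and at 5.62, 5.11 and 5.14 CPM with AZD4573. This was 5.70-fold lower, with a log2 fold change of -2.51 (SE 0.0698, edgeR adjusted p = 1.5e-11), and 1.36% of the genes tested had a lower value. Only 0.193% of its 100-base stretches occur in other genes, so that its value rests on reads of its own. POLR3A, the largest subunit, stood at 32.5, 32.9 and 33.0 CPM with DMSO and at 17.6, 20.1 and 17.1 CPM with AZD4573, a log2 fold change of -0.85 (SE 0.0663, edgeR adjusted p = 6.4e-08).

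POLR3C, POLR3F and either POLR3G or POLR3GL form the trimer that Pol III uses at initiation. POLR3C stood at 40.7, 38.2 and 38.5 CPM with DMSO and at 10.0, 10.5 and 10.2 CPM with AZD4573, a log2 fold change of -1.93 (SE 0.0602, edgeR adjusted p = 2.7e-11). POLR3F fell from 27.0 ± 1.15 to 16.5 ± 0.430 CPM, a log2 fold change of -0.71. Both fixed members of the trimer were therefore lower, with no overlap between groups, as for 38.7% of all genes tested.

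The alternative members of the trimer diverged on the TMM scale. POLR3G, known from stem cells and transformed cells, stood at 18.3, 18.3 and 17.8 CPM with DMSO and at 11.2, 12.6 and 12.8 CPM with AZD4573, a log2 fold change of -0.57 (SE 0.0704, edgeR adjusted p = 5.9e-06). POLR3GL, its broadly expressed paralog, stood at 42.0, 37.8 and 37.0 CPM with DMSO and at 57.4, 58.6 and 61.03 CPM with AZD4573. No other Pol III entry was higher. Its log2 fold change was 0.60 (SE 0.0574, edgeR adjusted p = 4.8e-07), and it became -0.14 on the mitochondrial scale and no longer passed the test there (edgeR adjusted p = 0.0944). POLR3G fell further on that scale, to -1.31.

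The other Pol III subunits described here were lower. POLR3K, the zinc ribbon subunit that is needed for termination by Pol III, fell from 33.5 ± 1.70 to 17.9 ± 0.652 CPM, a log2 fold change of -0.90. POLR3E (-0.61) and POLR3D (-0.48), the TFIIF-like pair of this enzyme, fell less, from 80.8 ± 2.29 to 53.0 ± 2.01 CPM and from 80.2 ± 2.50 to 57.5 ± 3.16 CPM. Of Pol III entries, 7 were lower and 1 was higher by at least 1.5-fold, beside 23.7% and 22.7% of all genes tested.

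Counterparts at one place in the enzymes were then set side by side. The 6 large subunits were all lower, and so were the 4 TFIIF-like subunits, beside 37.4% of all genes tested. Within a place, however, the order of the enzymes changed. For the largest subunit the log2 fold change was -1.34 in Pol II, -0.85 in Pol III and -0.18 in Pol I. For the second largest it was -2.51 in Pol III, -1.09 in Pol I and -0.32 in Pol II. In the stalk, POLR1F of Pol I was at -1.06 and its Pol II counterpart POLR2G at 0.36. For the zinc ribbon POLR3K was at -0.90, POLR1H at -0.40 and POLR2I at 0.03.

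**Figure D3:**
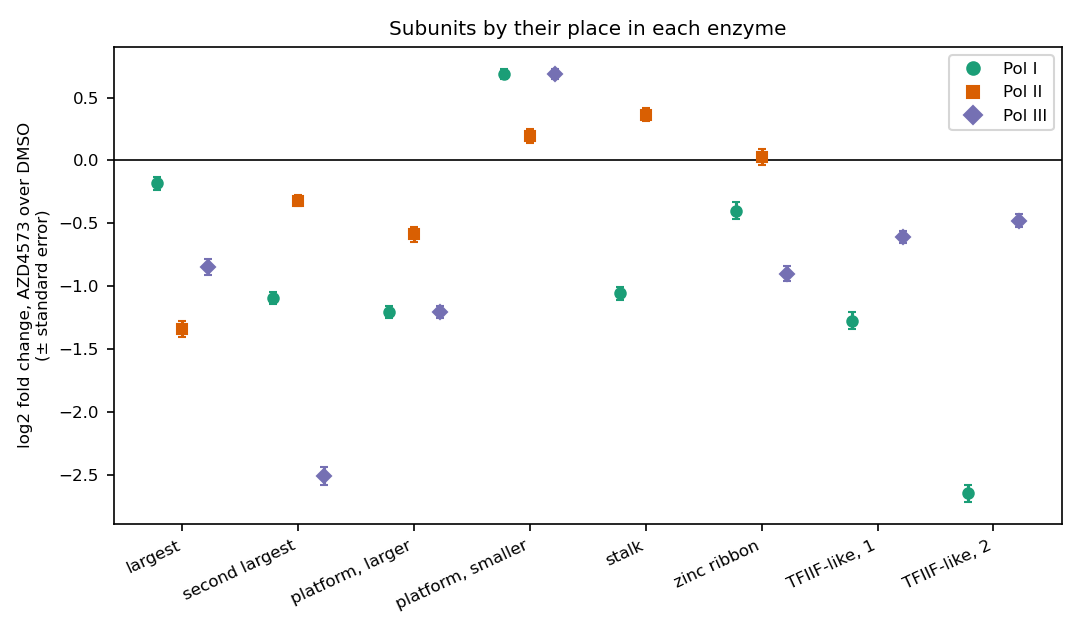
Log2 fold change (AZD4573 over DMSO, edgeR, TMM scale, ± standard error, n = 3 per group) of counterpart subunits of Pol I, Pol II and Pol III at each place in the enzyme, with POLR1C and POLR1D drawn for both Pol I and Pol III. The largest subunit fell most in Pol II and the second largest in Pol III, while the smaller platform subunits and the Pol II stalk subunit POLR2G lie above 0 on this scale, though below it when libraries were scaled to mitochondrial mRNAs.

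Ratios of counts between subunit genes in the same library do not depend on the scaling between libraries. They were taken for 5 pairs and compared by an exact two-sided permutation test of the log2 ratios, for which 3 against 3 libraries allow no p below 0.1. POLR1A to POLR2A was 0.407, 0.372 and 0.359 with DMSO and 0.914, 0.829 and 0.794 with AZD4573. POLR1B to POLR2B went the other way, from 1.00, 0.958 and 0.940 to 0.552, 0.571 and 0.576. The balance between Pol I and Pol II transcripts thus shifted in opposite directions for the largest and the second largest subunit, by 1.16 and -0.77 on the log2 scale.

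For Pol III, POLR3A to POLR2A was 0.103 ± 0.00985 with DMSO and 0.144 ± 0.00931 with AZD4573, a log2 difference of 0.49. POLR3B to POLR2B fell from 0.299 ± 0.00832 to 0.0655 ± 0.00194, a log2 difference of -2.19. POLR3G to POLR3GL was 0.435, 0.484 and 0.482 with DMSO and 0.195, 0.214 and 0.209 with AZD4573, a log2 difference of -1.18. In each of the 5 pairs the 3 libraries of one group lay beyond the 3 of the other, and the exact permutation p was 0.1 (0.1 after adjustment over the 5 pairs), the smallest this design allows. These ratios are not corrected for transcript length, so that they describe a shift and not which gene is more abundant.

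**Figure D4:**
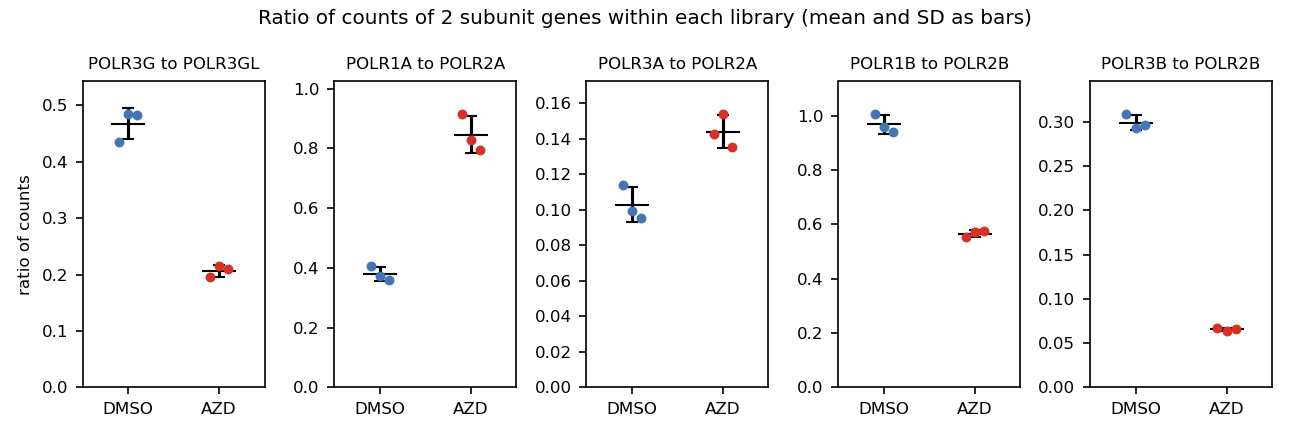
Ratio of counts of paired subunit genes within each library (points), with mean and SD as bars, n = 3 per group, each axis from 0. POLR1A and POLR3A rose relative to POLR2A, POLR1B and POLR3B fell relative to POLR2B, and POLR3G fell relative to POLR3GL, with no overlap between groups in any panel.

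Levels were also compared per length, as CPM per kb of the canonical transcript. With DMSO the Pol III subunits spanned 4.97 (POLR3A) to 33.1 (POLR3GL) CPM per kb, a 6.66-fold range. With AZD4573 they spanned 1.26 (POLR3B) to 50.1 (POLR3GL) CPM per kb, a 39.6-fold range. The transcripts of this enzyme were therefore less evenly matched after treatment, and the range was 10.4-fold and 38.4-fold when lengths of all exons together were used.

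Pol II core subunits spanned 26.6 (POLR2B) to 98.5 (POLR2I) CPM per kb with DMSO, and 18.0 (POLR2C) to 104 (POLR2J) CPM per kb with AZD4573. For Pol I the range was 2.87-fold with DMSO, from POLR1A at 9.73 to POLR1G at 27.9 CPM per kb, and 3.53-fold with AZD4573, from POLR1G at 4.46 to POLR1H at 15.7 CPM per kb. By canonical length POLR1G thus moved from the highest to the lowest place among Pol I subunits. Over all exons POLR1H was lowest with AZD4573, at 3.65 CPM per kb, with POLR1G at 3.93 CPM per kb. The value of POLR1G is uncertain to the extent described above for ERCC1. The widening of the Pol I range depended on the length used, since it narrowed from 5.11-fold to 2.09-fold over all exons.

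The paralogs of POLR2J on chromosome 7 and the POLR2J4 entries were described apart, because they share sequence with each other or with other genes, from 32.4% to all of the 100-base stretches of an entry. POLR2J2, which encodes a POLR2J-like protein, shares 93.5% of its 100-base stretches with other genes and stood at 4.32, 4.70 and 5.27 CPM with DMSO and at 2.85, 2.33 and 2.44 CPM with AZD4573. POLR2J3 was listed under 2 identifiers at overlapping positions. ENSG00000168255 went from 46.0 ± 1.78 to 77.3 ± 2.66 CPM, a log2 fold change of 0.75 that was 0.01 on the mitochondrial scale (edgeR adjusted p = 0.898). ENSG00000285437 was at 57.9 ± 4.34 and 78.3 ± 4.04 CPM, a log2 fold change of 0.44 that became -0.30 on that scale. Since 75.3% and 36.5% of the 100-base stretches of these entries occur in other genes, their values are uncertain.

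ENSG00000168255 also shares sequence with UPK3BL2, a uroplakin-like gene, as 30.7% of its 100-base stretches occur there. UPK3BL2 rose from 22.9 ± 2.79 to 67.0 ± 2.60 CPM, a log2 fold change of 1.55 that was 0.81 on the mitochondrial scale. The entry ENSG00000267645, which is related to POLR2J2 and falls outside the rule, was at 12.99 ± 0.729 and 19.1 ± 2.07 CPM. What reads of these genes contributed to the POLR2J3 values was not tested.

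POLR2J4 likewise had 2 entries on chromosome 7, and these moved in opposite directions. ENSG00000214783 (an lncRNA in GENCODE release 44, chromosome 7, 43940895 to 44019175, minus strand) stood at 4.92, 4.71 and 5.17 CPM with DMSO and at 29.6, 30.6 and 30.1 CPM with AZD4573. Its log2 fold change of 2.61 (SE 0.0683, edgeR adjusted p = 1.0e-11) was the largest rise of all 36 entries and remained 1.87 on the mitochondrial scale. ENSG00000272655, a transcribed pseudogene within the same locus (44014603 to 44019113), stood at 27.0, 27.3 and 27.7 CPM with DMSO and at 8.61, 8.95 and 8.29 CPM with AZD4573, a log2 fold change of -1.67 (SE 0.0640, edgeR adjusted p = 1.1e-10).

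All 100-base stretches of ENSG00000272655 occur in ENSG00000290872, a gene that has no entry in the counts. Of these stretches, 98.7% occur in ENSG00000214783, 46.7% in POLR2J and 29.3% in each of the POLR2J2 and POLR2J3 entries. The POLR2J4 entries together stood at 32.3 ± 0.523 CPM with DMSO and 38.7 ± 0.734 CPM with AZD4573, which is 120% of the DMSO level. ENSG00000272655 held 84.3% to 85.3% of the joint counts with DMSO and 21.6% to 22.6% with AZD4573. The joint level of the POLR2J4 entries thus differed far less between groups than either entry did. How the estimation divided the reads shared among all of these genes was not tested.

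**Figure D5:**
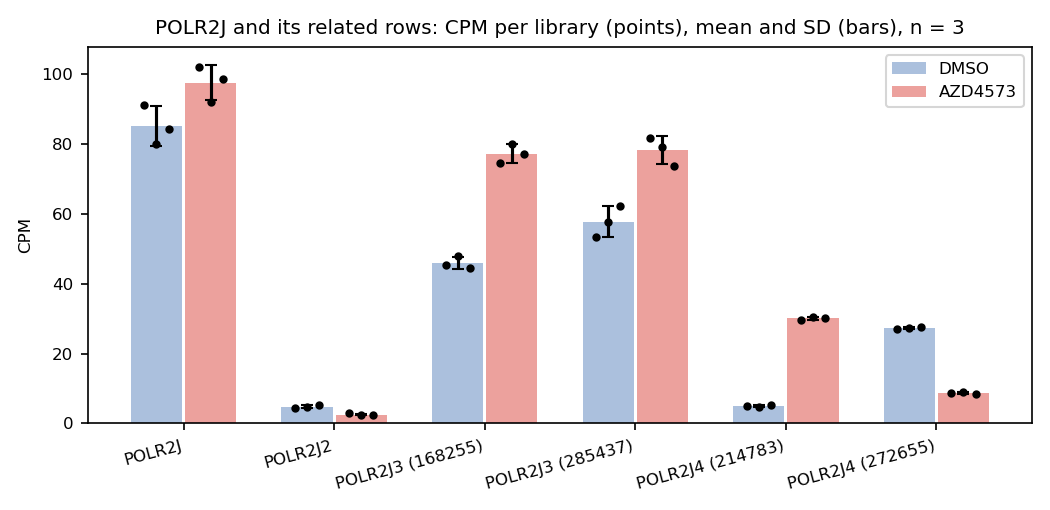
CPM of POLR2J and of the entries that resemble it, as group means (bars) with SD and single libraries (points), n = 3 per group, with the last digits of the identifier where a name has more than 1 entry. The POLR2J4 entries trade places between groups, whereas POLR2J and both POLR2J3 entries are higher with AZD4573 on this scale, of which POLR2J and ENSG00000285437 were lower when libraries were scaled to mitochondrial mRNAs.

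Other genes of the same pathway were examined through lists written from general knowledge. CRCP, a subunit of Pol III that lacks a POLR3 name, fell from 80.0 ± 1.89 to 51.3 ± 2.64 CPM (log2 fold change -0.64). POLRMT, the single-subunit mitochondrial RNA polymerase, fell from 280 ± 13.8 to 229 ± 6.49 CPM (-0.29). Of 7 initiation factors of Pol I, 6 were lower, none was higher and TAF1C did not pass the edgeR test (adjusted p = 0.48), with a median of -0.62, beside 37.4% lower and 37.3% higher among all genes tested. TAF1A, a subunit of the promoter selectivity factor of Pol I, fell furthest, from 21.2 ± 1.14 to 4.61 ± 0.538 CPM (-2.20).

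Of 17 transcription factors of Pol III, 11 were lower, 3 were higher and 3 did not pass, with a median of -0.56, where 37.4% of all genes were lower and 37.3% higher. SNAPC2, of the complex that recruits Pol III and Pol II to small nuclear RNA genes, fell from 15.8 ± 0.367 to 3.86 ± 0.479 CPM (-2.04), and SNAPC5, of the same complex, was at 10.9 ± 1.29 and 18.7 ± 0.945 CPM (0.77, and 0.03 on the mitochondrial scale). Of 16 assembly and import factors of the polymerases, 7 were lower, 7 were higher and 2 did not pass, with a median of 0.03, beside the 37.4% lower and 37.3% higher of all genes. RPAP3, a co-chaperone in polymerase assembly, fell from 77.8 ± 2.11 to 32.6 ± 0.197 CPM (-1.25), whereas RPAP2, a phosphatase of the Pol II tail, rose from 25.3 ± 1.03 to 49.8 ± 1.88 CPM (0.97, and 0.24 on the mitochondrial scale). The initiation factors of Pol I and Pol III thus had medians well below that of all genes, while the assembly factors had a median equal to it. TBP belongs to both initiation lists.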

How the data were processed

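Bulk RNA-seq of H9 cells (3 DMSO and 3 AZD4573 libraries) was taken from the table deposited by the authors, which holds RSEM expected counts per gene in whole numbers without normalization. Per the labels and methods, reads were trimmed with Cutadapt 2.3, aligned to GRCh38 with STAR 2.7.8a and quantified with RSEM 1.3.3 at default parameters, which ignore strand. The labels describe poly(A) selection and the supplemental methods rRNA depletion with a directional kit, so that whether strand was used is not certain.

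Groups followed the labels. Counts were analysed in R 4.3.3 with edgeR 4.0.16 (filterByExpr, minimum count 10, TMM, quasi-likelihood test without covariates), with Benjamini-Hochberg adjustment over 17678 genes. CPM use TMM-scaled library sizes, and errors are SD over libraries. Calls needed an adjusted p under 0.05, and in a second rule also a fold change of at least 1.5. Alternatives were RLE factors, library size only, scaling to 13 mitochondrial mRNAs, other filters, DESeq2 1.42.0, a replicate block, each library left out and a fold change of 2. The code was tested on simulated data.

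Subunits were taken by name. They were named, except 1 that is counted but not reported here, and of each further list the largest fall and rise, CRCP and POLRMT. The members, lists and markers were chosen with earlier results of these data known. Positions, biotypes and shared 100-base stretches came from GENCODE 44, and promoters from RefSeq (GRCh38.p14). Within groups the libraries differed by more than sampling (5.29 to 19.4 chi-square units for each degree of freedom), so none is a copy. Counts range over 52101868 to 76571157 per library, and their precision covers counting error only.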

Additional observations from a re-analysis of the deposited data

How the results depend on the processing

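Of 36 genes under 13 alternatives (468 values), 446 held in sign and call, 10 lost significance (7 of them for POLR2F) and 12 reversed, while 27 genes held under all alternatives and 33 under all but mitochondrial scaling. With that scaling, 1 member was higher, 28 were lower and 1 higher by 1.5-fold, and the reversed genes were POLR2F (-0.62), POLR2J (-0.54), POLR2E (-0.52), POLR2G (-0.38), POLR2J3 (ENSG00000285437, -0.30), POLR3GL (-0.14), POLR1D (-0.0515) and POLR2I (-0.71). POLR2I also reversed with library size only (-0.0775), without a filter (-0.017) and without single libraries (-0.0326 to 0.0809). The class medians for Pol I, Pol II, Pol III, all enzymes, and Pol I with III were -1.81, -1.06, -1.52, -0.93 and -0.998 with mitochondrial scaling, and -1.18, -0.42, -0.88, -0.30 and -0.36 with library size only. Without a filter the Pol I, Pol II and joint Pol I and III medians were -1.12, -0.36 and -0.30, and with 10 counts in every library -1.04, -0.28 and -0.22. Without single libraries the Pol I median lay between -1.10 and -1.06. With library size only, 2 members were higher by 1.5-fold. A fold change of 2 left 10 lower and 1 higher. Over the 25 entries with under 10% shared sequence, an alternative chosen after seeing the data, 20 were lower and 5 were higher, 2 of them by 1.5-fold. Entries of each direction were left out there. The higher ones left out were POLR2J, the POLR2J3 entries and the POLR2J4 entry ENSG00000214783. The cause of the changes under the alternatives was not tested.

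A replicate block left 26 lower and 9 higher. Same-numbered libraries correlated at -0.02, 0.04 and 0.03, so no pairing by number was visible. These values cannot exclude that libraries of the same number were prepared together, since that need not leave a visible correlation. Among members the standard error was largest (0.132) for POLR2J2, at 2.33 to 5.27 CPM, where depth limits precision most.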

Other observations

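Across the 32 coding subunit genes with a single entry, the log2 fold change was described against gene properties, without a test, since genes share libraries and are not replicates. Longer canonical transcripts had somewhat lower values (Pearson's r = -0.38, Spearman's rho = -0.39), whereas gene span on the genome (r = -0.11) and the level with DMSO (r = 0.07) showed little relation. POLR1A, with the longest canonical transcript of the subunits at 12480 bases, was among those that fell least (-0.18), and POLR1D, at 693 bases, was the coding single-entry gene with the largest rise (0.69, and -0.05 on the mitochondrial scale).

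Further transcription factors of Pol III moved in both directions. BRF1, which positions Pol III at tRNA genes, fell from 73.2 ± 1.76 to 22.8 ± 1.20 CPM (log2 fold change -1.68), and GTF3C5, of the complex that binds these promoters, fell from 76.3 ± 1.69 to 25.4 ± 1.67 CPM (-1.59). GTF3C4, of the same complex, rose from 91.4 ± 0.732 to 131 ± 8.88 CPM (0.52, and -0.22 on the mitochondrial scale), and GTF3A, which binds the gene of the smallest ribosomal RNA, rose from 311 ± 23.1 to 437 ± 12 CPM (0.49, and -0.25 on that scale), while GTF3C1 was at 95.3 ± 3.48 and 95.1 ± 3.04 CPM and did not pass the edgeR test (adjusted p = 0.953). MAF1, the repressor of Pol III, was at 182 ± 11.0 and 194 ± 3.11 CPM and did not pass the edgeR test (adjusted p = 0.108). These genes were picked after their values were seen.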
